A study of Mus musculus with 22 samples.

Results

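The genes described here are the Hox cofactors Meis1, Meis2, Meis3, Pbx2 and Pbx3, taken by their gene symbols from the deposited expression table. They are 5 of the 28099 genes in that table. All 5 reached a signal of 10 in 3 or more libraries and so were among the 16917 genes tested. The study profiled arterial smooth muscle cells, isolated by fluorescence-activated cell sorting from 7 mouse tissues, to ask how these cells differ between tissues. Aorta, heart, lung, stomach, kidney and bladder had 3 libraries each and intestine had 4, giving 22 libraries. The labels gave the genotype Cspg4-Dre/Acta2-CreERT/R26-GFP for 6 tissues and Cspg4-DreERT/Acta2-CreERT/R26-GFP for heart, so heart and its genotype cannot be told apart. Cspg4 encodes NG2, a proteoglycan of mural cells, and Acta2 encodes smooth muscle actin, so the reporter depends on promoters active in mural and smooth muscle cells of many kinds. All groups received tamoxifen, 0.75 mg per 10 g body weight by intraperitoneal injection in corn oil for 3 days, and no untreated group was analysed here. The labels did not say whether the libraries of a tissue came from separate mice, so the p-values reflect library-to-library spread alone, which may be technical. The ages of the mice were not given in the sources used here.

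Meis and Pbx proteins belong to the TALE class of homeodomain proteins, in which extra residues lengthen the loop between the first helices of the homeodomain. They bind DNA together with Hox proteins and with each other, and Pbx proteins depend on Meis or the related Pknox proteins for entry into the nucleus. In arteries, members of this class are known for roles in vessel patterning and in the formation of the great arteries and the vessel wall.

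Meis1 signal was more than 10 times lower in aorta than in kidney, and Pbx2 signal was lowest in aorta too. Meis2 was highest in kidney and bladder and lowest in lung. Meis3, which varied least, was highest in lung and lowest in stomach. Pbx3 was highest in stomach and intestine and lowest in bladder, but its test across the 7 tissues missed the threshold.

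The stretch that encodes the DNA recognition helix of the homeodomain is shown for each gene because the paralogs are alike there, and reads of one could in principle be counted for another. Sequences are 75 bases of the GENCODE M21 transcripts (GRCm38), 5′ to 3′ on the coding strand, and capitals mark bases that differ from Meis1 in the Meis genes and from Pbx2 in Pbx3.
Meis1: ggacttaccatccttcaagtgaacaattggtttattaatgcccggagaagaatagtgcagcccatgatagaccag
Meis2: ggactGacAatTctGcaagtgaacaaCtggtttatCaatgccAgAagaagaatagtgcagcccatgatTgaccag
Meis3: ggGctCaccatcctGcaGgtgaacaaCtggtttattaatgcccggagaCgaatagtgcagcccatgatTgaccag
Pbx2: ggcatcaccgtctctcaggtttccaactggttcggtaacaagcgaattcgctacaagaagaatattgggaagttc
Pbx3: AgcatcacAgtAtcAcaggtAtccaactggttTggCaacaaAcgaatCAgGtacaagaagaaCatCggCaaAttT
Meis2 differed from Meis1 at 9 of the 75 bases and Meis3 differed from Meis1 at 7. Pbx3 differed from Pbx2 at 16 of 75. Over whole protein-coding transcripts, the longest run shared by a pair of these genes was 32 bases, between Meis1 and Meis2, and 0 stretches of 50 bases were shared by any pair. The read length is not given in the sources used here.

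Per the deposited table (build mm39), Meis1 (ENSMUSG00000020160) lies on the minus strand of chromosome 11 at 18829817 to 18968985, and Meis2 (ENSMUSG00000027210) on the minus strand of chromosome 2 at 115693545 to 115896320. Meis3 (ENSMUSG00000041420) lies on the plus strand of chromosome 7 at 15909015 to 15920429. Pbx2 (ENSMUSG00000034673) lies on the plus strand of chromosome 17 at 34810240 to 34816374, and Pbx3 (ENSMUSG00000038718) on the minus strand of chromosome 2 at 34061469 to 34263154. The first 489 bases of Pbx2 overlap the end of Gpsm3, a gene on the same strand whose signal ranged from 0 to 411, so reads in the overlap are uncertain. Within Meis1 lie 4 short annotated transcripts, 1 of them the antisense RNA Gm16141, with signals of at most 25.

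The values are signal: reads divided by a scaling factor for each library and rounded, so that a unit of signal stood for a different number of reads in each library. Depth, rebuilt from the steps between values, was 629456 reads in aorta 1, 1540366 in aorta 2, 1927765 in aorta 3 and 817157 in heart 3. It was 4389363 to 12708394 reads in the other 18 libraries. The summed signal of 8 smooth muscle markers was above 0 in every library, at 49290 to 63975 in aorta, 7742 to 17756 in bladder and 77561 in heart 3. All 7 epithelial markers were above 0 in every stomach, intestine and kidney library, with a mean Cdh1 signal of 3480 in stomach. Cdh1 and Cldn4 were at 0 in all aorta libraries, and they and Epcam in all heart libraries. Cspg4 signal ranged from 15 in bladder 3 to 2542 in kidney 3. In sorted bulk RNA, fewer cells of a type and less RNA per cell cannot be told apart.

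Each gene was tested with limma on log2(signal + 1) with Benjamini-Hochberg adjustment over all genes. In the F test across the 7 tissues 59.6% of all tested genes passed an adjusted p of 0.05, and 4 of the 5 genes here did. Adjusted p was 0.000101 for Meis1, 0.0003416 for Meis2, 0.01526 for Meis3 and 0.0009078 for Pbx2. For Pbx3 it was 0.05329. When each tissue was set against the mean of the other 6, 7 of the 35 gene by tissue contrasts passed, 3 higher and 4 lower, beside 21.5% of all such contrasts over all genes. The share for these genes was thus near the background.

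**Figure D1:**
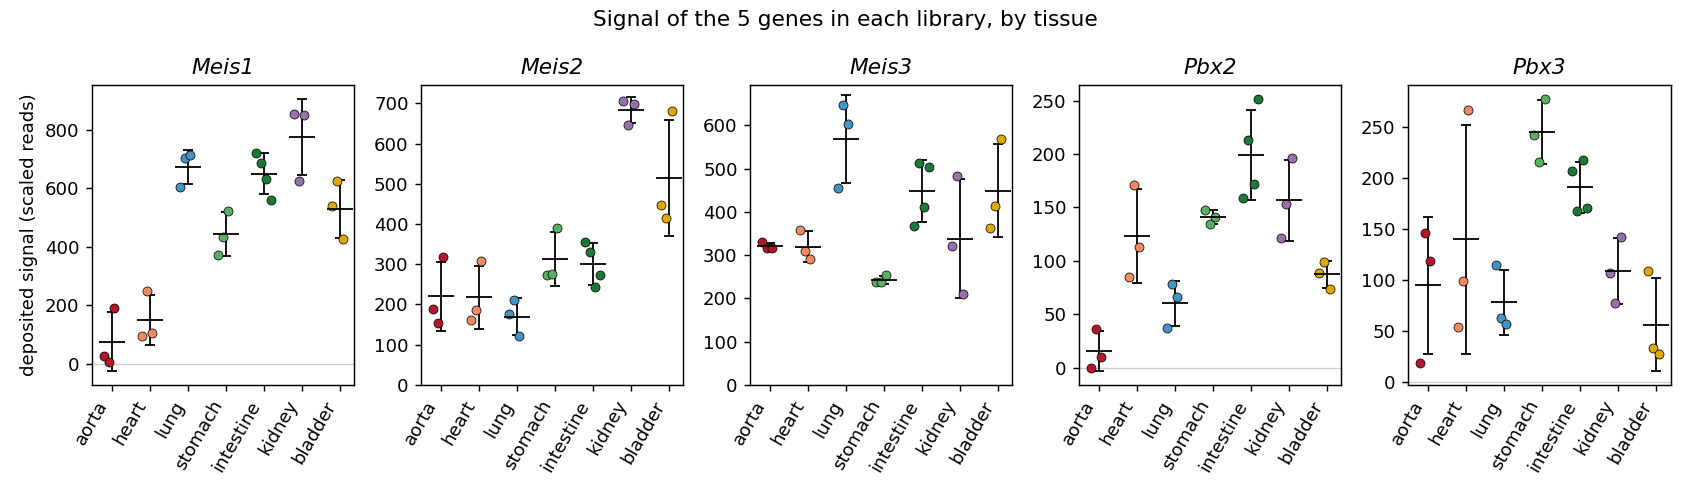
Deposited signal (vertical axis, scaled reads, a separate linear scale for each gene) of Meis1, Meis2, Meis3, Pbx2 and Pbx3 by tissue. Coloured points are libraries, and black bars are the tissue mean ± SD (n = 3, intestine n = 4). Meis1 and Pbx2 sit lowest in aorta, at means of 76 and 15.3, and Meis2 sits highest in kidney, at 683.

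Meis1 encodes a partner of Hox and Pbx proteins that is also known for its part in cardiomyocyte cell cycle exit and in blood stem cells. Its signal was 28, 8 and 192 in the aorta libraries and 94, 249 and 105 in the heart libraries. It was 604, 702 and 712 in lung, 371, 435 and 521 in stomach, and 719, 687, 632 and 559 in intestine. Aorta and heart overlapped each other, and every library of the other 5 tissues lay above both.

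Kidney gave Meis1 signals of 854, 626 and 849, and bladder gave 541, 624 and 425. Tissue means ran from 776 ± 130 (SD, n = 3) in kidney through 673 ± 59.7 in lung, 649 ± 70.1 (n = 4) in intestine, 530 ± 100 in bladder, 442 ± 75.3 in stomach and 149 ± 86.5 in heart to 76 ± 101 in aorta. No pair of neighbours in this order passed the test.

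Against the other 6 tissues, Meis1 in aorta had a log2 fold change of -3.66 ± 0.51 (SE), with an adjusted p of 2.042e-05 in limma. Over all tested genes 42.8% were lower in aorta by this rule, and the median log2 fold change there was -1.04, so the value for Meis1 lay below a broad shift. Of the 8783 genes called in aorta 17.6% were higher, and of the 4857 called with edgeR on rebuilt reads 46.6% were. With edgeR the Meis1 value was -2.42, with an adjusted p of 0.001035, beside a median of -0.40 over all genes. Leaving out 1 aorta library moved the limma value to -3.49 (without aorta 1), -2.64 (without aorta 2) or -4.86 (without aorta 3), and it passed each time. The aorta values rest on 3 reads in aorta 1 and 2 reads in aorta 2, whose exact Poisson 95% intervals were 5.83 to 82.6 and 0.98 to 29.3 in units of signal. Both upper limits lay below the signal of every library outside aorta, a comparison that leaves out the counting error of those libraries. The lowest of them were heart 1, at 94, and heart 3, at 105 from 13 reads. Aorta 3, at 192 from 58 reads, lay above both.

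In heart the Meis1 log2 fold change against the other 6 was -1.47, with an adjusted p of 0.05164 in limma, and 18.4% of all genes passed in heart in either direction. Without the aorta libraries it was -2.14, with an adjusted p of 3.699e-06. Pairwise, Meis1 was lower in heart than in intestine by a log2 difference of -2.25 ± 0.63 (adjusted p = 0.01093, limma), than in kidney by -2.50 ± 0.67 (adjusted p = 0.023) and than in lung by -2.30 ± 0.67 (adjusted p = 0.04268). The difference from kidney did not pass without heart 1, heart 3, kidney 1 or kidney 3 (adjusted p of 0.07024 to 0.08676), and the difference from lung did not pass in 16 of the 22 fits that left out 1 library, with p up to 0.1502. The 8 cardiomyocyte markers summed to 2478 to 3649 in heart, above the 58 to 2064 of the other tissues, with 6 of the 8 above 0 in every heart library, and their part in the heart value was not tested.

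Meis2 encodes a close relative of Meis1 with known roles in the neural crest and the cardiac outflow tract. Its signal was 706, 646 and 698 in kidney and 448, 415 and 681 in bladder. All 6 of these libraries lay above the 16 others, which ranged from 121 in lung 3 to 389 in stomach 3.

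The lung libraries of Meis2 had signals of 176, 211 and 121, and the heart libraries 160, 185 and 307. Aorta gave 188, 154 and 317, stomach gave 273, 275 and 389, and intestine gave 356, 330, 242 and 274. Means were 683 ± 32.6 in kidney, 515 ± 145 in bladder, 312 ± 66.4 in stomach, 300.5 ± 51.9 in intestine, 220 ± 86.0 in aorta, 217 ± 78.7 in heart and 169 ± 45.4 in lung (SD, n = 3, intestine n = 4). No pair of neighbours in this order passed the test, although the bladder and stomach ranges did not overlap.

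Meis2 was higher in kidney than in the other 6 tissues by a log2 fold change of 1.37 ± 0.26 (adjusted p = 0.001223, limma), where 6.35% of all genes were higher. This call held in every alternative, with values from 1.31 to 1.45. In bladder it was higher by 0.86 ± 0.26 (adjusted p = 0.02736), where 8.31% of all genes were higher. The bladder call did not pass without bladder 1 (adjusted p = 0.0534) or without bladder 3 (0.2212), nor with array weights (0.08239) or with all genes kept (0.052). Bladder 3, the library with the most Meis2 of the 3, had a Cspg4 signal of 15, a smooth muscle marker sum of 7742 and a sum of 7 epithelial markers of 4180, beside 528 and 560 for epithelial markers in the other two. Over the 3 bladder libraries 4 mesothelial markers summed to 303 to 1074 (0 to 368 elsewhere), 7 immune markers to 1374 to 3024 (8 to 1623 elsewhere) and 7 fibroblast markers to 19677 to 27356 (4552 to 35572 elsewhere). Across tissues, epithelial marker sums were highest in stomach, at 7630 to 10065, and were 466 to 2069 in kidney. The part of epithelial, mesothelial, immune and fibroblast cells in the bladder and kidney values was not tested.

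In lung Meis2 was lower by a log2 fold change of -1.01 ± 0.26 (adjusted p = 0.0185, limma), where 3.48% of all genes were lower. Without lung 1 the adjusted p was 0.0806, and without lung 3 it was 0.1706. The widest pairwise difference of Meis2 was between lung and kidney, at -2.04 ± 0.34 (lung minus kidney, adjusted p = 0.0003814). Kidney also exceeded aorta, heart, stomach and intestine, and bladder exceeded aorta, heart and lung, in 8 pairs of 21 in all. Among these, array weights ended the differences between aorta and both kidney (adjusted p = 0.06539) and bladder (0.2701). The stomach to kidney difference, -1.15, did not pass without kidney 1, 2 or 3 or stomach 1 or 2, with adjusted p up to 0.1143. The intestine to kidney difference, -1.20, did not pass without kidney 1 (0.05516) or kidney 3 (0.05301), and the heart to bladder difference, -1.26, without bladder 3 (0.08291) or heart 1 (0.0618).

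Meis3 encodes the shortest transcript of the 3 Meis genes and is known for its part in hindbrain patterning. Its signal was 455, 648 and 604 in lung and 238, 237 and 253 in stomach. The 2 groups did not overlap, and every stomach library lay below every library of the other tissues except kidney 3, at 209.

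Aorta was even for Meis3, with signals of 330, 316 and 317, and heart gave 359, 309 and 291. Bladder gave 363, 414 and 569, intestine gave 367, 513, 411 and 503, and kidney gave 321, 483 and 209. Means were 569 ± 101 in lung, 449 ± 107 in bladder, 448.5 ± 71.1 in intestine, 338 ± 138 in kidney, 321 ± 7.81 in aorta, 319.7 ± 35.2 in heart and 243 ± 8.96 in stomach (SD, n = 3, intestine n = 4). No neighbours in this order differed by the test. The ratio of the highest to the lowest mean, 2.34, was the smallest of the 5 genes, beside 10.2 for Meis1, 4.04 for Meis2, 13.0 for Pbx2 and 4.36 for Pbx3.

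Meis3 was higher in lung than in the other 6 by a log2 fold change of 0.72 ± 0.22 (adjusted p = 0.0444, limma), where 4.43% of all genes were higher. It was lower in stomach by -0.69 ± 0.22 (adjusted p = 0.0287), where 6.93% of all genes were lower. The lung call did not pass in 14 of the 22 fits that left out 1 library, among them lung 1 (0.07711), lung 2 (0.2335) and lung 3 (0.1904), nor with median-of-ratios scaling (0.08948). The stomach call did not pass without stomach 1 (0.1179), stomach 2 (0.1272) or stomach 3 (0.09538), nor with all genes kept (0.05734). The direct difference between lung and stomach, 1.21 ± 0.28 (adjusted p = 0.004756), passed in every alternative. The smaller differences between lung and aorta (aorta minus lung -0.81, adjusted p = 0.04823) and between bladder and stomach (stomach minus bladder -0.86, adjusted p = 0.04375) did not pass in 16 and 13 of the 22 fits with 1 library left out.

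Pbx2 encodes a widely expressed member of the Pbx family, whose proteins hold a nuclear complex with Meis and Hox partners. Its signal in aorta was 0, 36 and 10, from 0, 9 and 3 reads. In the other tissues it ranged from 37 in lung 1 to 252 in intestine 4, and no library outside aorta lay within the aorta range. The exact Poisson 95% interval of aorta 2 was 16.7 to 69.2 in units of signal, which takes in lung 1, at 37, and lung 3, at 66. For the count of 0 in aorta 1 the upper end of that interval was 34.8, and 3 reads would give a signal of 28.3.

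Intestine gave Pbx2 signals of 159, 213, 172 and 252, kidney gave 121, 153 and 196, and stomach gave 148, 135 and 141. Heart gave 85, 171 and 113, bladder gave 89, 99 and 74, and lung gave 37, 78 and 66. Means were 199 ± 42.2 in intestine, 157 ± 37.6 in kidney, 141 ± 6.51 in stomach, 123 ± 43.9 in heart, 87.3 ± 12.6 in bladder, 60.3 ± 21.1 in lung and 15.3 ± 18.6 in aorta (SD, n = 3, intestine n = 4). Lung and aorta were the only neighbours to differ by the test, at -2.98 ± 0.82 (aorta minus lung, adjusted p = 0.01556, limma), and this did not pass with array weights (0.1001), with edgeR on rebuilt reads (0.07767), or without lung 2 (0.06553) or lung 3 (0.05173).

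Against the other 6 tissues Pbx2 in aorta had a log2 fold change of -3.99 ± 0.63 (adjusted p = 6.629e-05, limma). Over all tested genes 42.8% were lower in aorta, and the median log2 fold change there was -1.04. The Pbx2 value kept its direction and its call in every alternative, between -5.15 and -2.54. With edgeR it was -2.64, with an adjusted p of 0.0008689, beside a median of -0.40 over all genes. The fitted fold change depends on the value added before the logarithm, since the reads in aorta 1 were 0. Pbx2 was below each of the 6 other tissues pairwise, from -2.98 against lung to -4.73 against intestine, and passed in 0 of the 15 pairs that leave out aorta. Over all genes 35.5% of the comparisons with aorta and 15.0% of those without it passed. In heart 3, a library of 817157 reads with the highest smooth muscle marker sum, Pbx2 signal was 113 (14 reads) and Meis1 signal 105 (13 reads). The part of depth and of smooth muscle content in the aorta values was not tested. Sums of 8 endothelial markers were 619 to 782 in aorta (3 of 8 above 0 in every aorta library) and 989 to 7356 elsewhere, and their part in the aorta values was not tested. In intestine Pbx2 was at 1.53 against the other 6 (adjusted p = 0.05043), where 25.5% of all genes passed in either direction, and without the aorta libraries at 0.89 (adjusted p = 0.01261).

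Pbx3 encodes another Pbx protein, known for its roles in the nervous system and in leukaemias with high Hox and Meis1 levels. Its signal was 242, 216 and 278 in stomach and 207, 168, 218 and 171 in intestine. It was 109, 33 and 27 in bladder and 115, 63 and 57 in lung. The stomach and intestine libraries lay above all bladder and lung libraries.

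The other tissues were uneven for Pbx3. Aorta gave 19, 146 and 119, of which the first rests on 2 reads, heart gave 54, 99 and 267, and kidney gave 107, 77 and 142. Heart spanned nearly the whole range of the gene. Means were 245 ± 31.1 in stomach, 191 ± 25.3 in intestine, 140 ± 112 in heart, 109 ± 32.5 in kidney, 94.7 ± 66.9 in aorta, 78.3 ± 31.9 in lung and 56.3 ± 45.7 in bladder (SD, n = 3, intestine n = 4), and no neighbours differed by the test.

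Against the other 6 tissues Pbx3 had a log2 fold change of 1.42 in stomach (adjusted p = 0.06625, limma) and of -1.35 in bladder (adjusted p = 0.09771). Without the aorta libraries these were 1.35 (adjusted p = 0.02619) and -1.50 (0.01421). Pairwise, stomach exceeded bladder by 2.38 ± 0.70 (adjusted p = 0.02357), intestine exceeded bladder by 2.02 ± 0.65 (0.039) and stomach exceeded aorta (aorta minus stomach -1.79 ± 0.70, 0.04201). Leaving out 1 library ended these calls in 5, 9 and 8 of 22 fits, with adjusted p up to 0.1119, 0.1866 and 0.2542. Stomach and intestine also had the highest epithelial marker sums, 7630 to 10065 and 5039 to 7163, against 38 to 4180 elsewhere, and their part in Pbx3 was not tested.

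**Figure D2:**
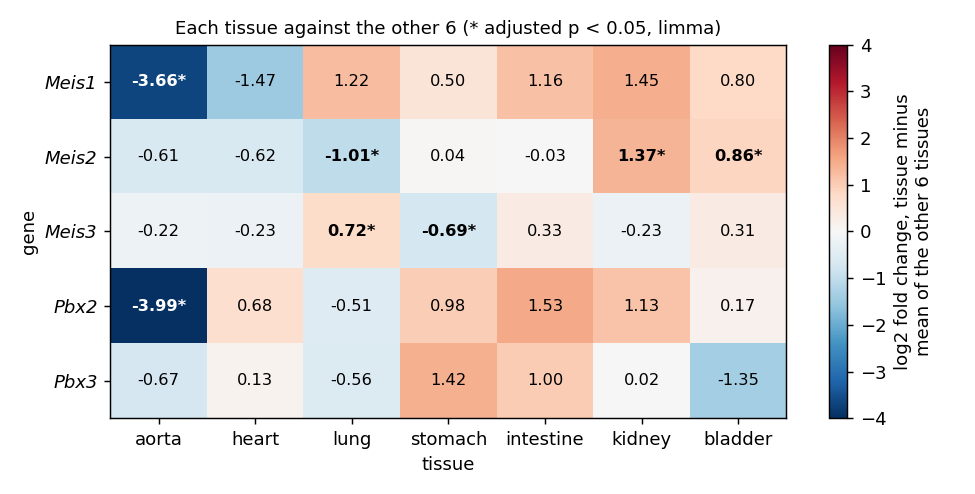
Log2 fold change of each gene (vertical) in each tissue (horizontal) minus the mean of the other 6 tissues, on the log2(signal + 1) scale, with red for higher and blue for lower. Stars mark the 7 contrasts with an adjusted p under 0.05 in limma, from -3.99 for Pbx2 in aorta to 1.37 for Meis2 in kidney.

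Over all 21 tissue pairs, 28 of the 105 gene by pair comparisons passed. Pairs with aorta held 15 of these among 30, beside 35.5% over all genes. Pairs without aorta held 13 among 75, beside 15.0% over all genes. The shares for these genes were therefore near the background outside aorta. Meis2 held 6 of the 13 calls outside aorta, Meis1 held 3, Meis3 and Pbx3 held 2 each, and Pbx2 held 0.

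The balance within each family was compared by the log2 ratio of paralogs in the same library, which does not change with the scaling of the library except through the added 1. The ratio of Meis2 to Meis1 was 2.51 ± 1.70 (SD, n = 3) in aorta and -2.02 ± 0.46 in lung. The ratio of Pbx3 to Pbx2 was 3.25 ± 1.18 in aorta. In all 3 aorta libraries both ratios were above 0, as was Pbx3 over Pbx2 in all 3 stomach libraries (0.67 to 0.97). For Pbx3 over Pbx2 the lowest aorta value was 1.99 and the highest elsewhere 1.61. For Meis2 over Meis1, aorta 3 (0.72) lay below heart 1 (0.76) and heart 3 (1.54). All 3 lung libraries lay below every other library for Meis2 over Meis1, with -1.73 as their highest value and -1.38 as the lowest elsewhere.

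In 14 two-sided exact permutation tests of 1 tissue against all other libraries, with Benjamini-Hochberg adjustment over the 14, both aorta ratios passed. The difference from the other tissues was 3.08 for Meis2 over Meis1 (exact permutation p = 0.001948, adjusted p = 0.01364). It was 3.32 for Pbx3 over Pbx2 (exact permutation p = 0.0006494, adjusted p = 0.009091), the smallest p this design can give. These ratios rest on few reads, and their sizes moved with the aorta libraries used. Meis2 over Meis1 differed by 2.99 without aorta 1, 2.28 without aorta 2 and 3.98 without aorta 3, and Pbx3 over Pbx2 by 2.78, 3.95 and 3.22. With a pseudocount of 5 the differences were 2.86 and 2.45. With 2 aorta libraries the smallest exact permutation p is 0.004762, which cannot pass over 14 tests unless other ratios also reach low p values. The calls were lost without aorta 1 or aorta 2, which at this size says little of their stability. For lung, Meis2 over Meis1 differed by -2.16 from the other tissues, with an exact permutation p of 0.02013 and an adjusted p of 0.09394. Without the aorta libraries the lung difference was -1.72, with an exact permutation p of 0.002064 and an adjusted p of 0.02477 over the 12 tests left.

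**Figure D3:**
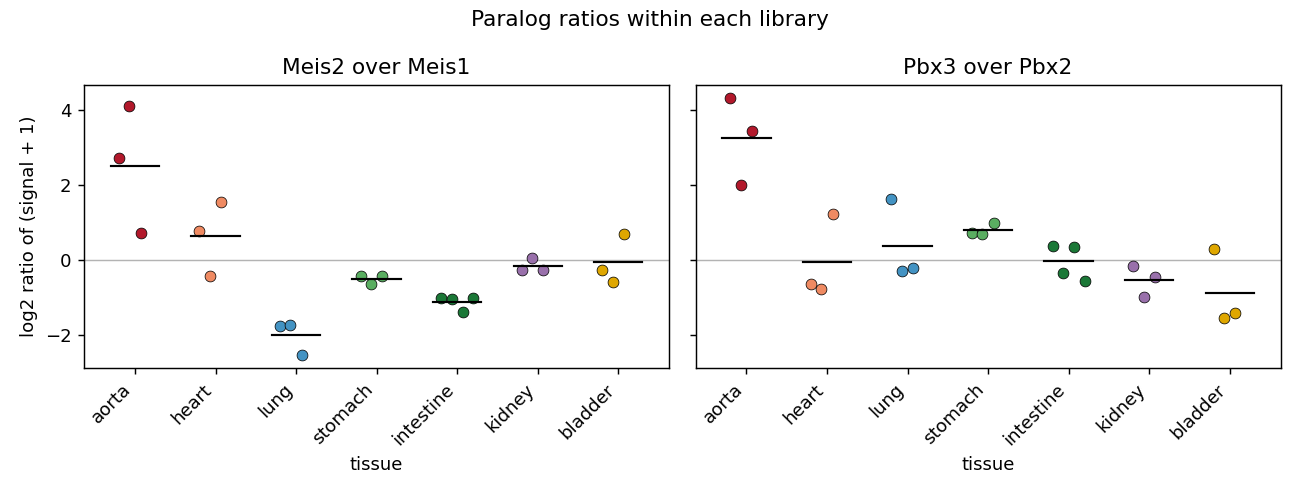
Log2 ratio of signal + 1 (vertical axis) for Meis2 over Meis1 (left) and Pbx3 over Pbx2 (right) by tissue, with a point for each library and a black line for the tissue mean. The aorta means, 2.51 and 3.25, are the highest, and the lung mean of Meis2 over Meis1, -2.02, is the lowest.

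Levels can be compared between genes only per length. Per kb of all annotated exons (GENCODE M21), the mean signal of Meis3 was 101 in aorta, 179 in lung and 106 in kidney, beside 7.22, 63.9 and 73.7 for Meis1 and 18.2, 14.1 and 56.7 for Meis2. Meis3 had the highest signal per kb of the 3 Meis genes in 21 of the 22 libraries. Its share of their summed signal per kb ran from 43.9% ± 12.7 (SD, n = 3) in kidney to 80.7% ± 10.1 in aorta.

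The order of the other 2 Meis genes depended on the length used. Per kb of all exons Meis1 exceeded Meis2 in 16 of 22 libraries, and per kb of the longest coding transcript, a length chosen after the data were seen, in 6. By that length Meis3 was highest in 20 of 22 libraries. Pbx2 exceeded Pbx3 per kb of all exons in 16 of 22 libraries and per kb of the longest coding transcript in 11. By all exons the Pbx2 share of the 2 Pbx genes was 13.9% ± 14.7 in aorta and 74.5% ± 14.4 in bladder (SD, n = 3), and by coding transcript 8.33% ± 9.08 and 61.9% ± 17.2. The aorta shares rest on 0, 9 and 3 reads of Pbx2 and 2, 36 and 36 reads of Pbx3.

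The genes whose profile over the 22 libraries was most like each member were found by Pearson's r of log2(signal + 1) among 13004 genes. These are descriptions, since libraries share tissue, scaling and depth. For Meis1 they were Nt5e (r = 0.92), Smg8 (0.91) and Dpy19l4 (0.91). For Meis2 they were Cldn4 (0.82), Them7 (0.81) and Slc14a1 (0.81), of which Cldn4 is also among the epithelial markers. For Meis3 they were Prxl2b (0.80), Vrk2 (0.80) and Xpa (0.79). For Pbx2 they were Evl, Baz2a and Tril, each at 0.96, and for Pbx3 Strbp (0.86), Slc12a7 (0.84) and Caskin2 (0.84). Over the 19 libraries outside aorta, the values for Nt5e, Smg8 and Dpy19l4 were 0.76, 0.73 and 0.68 and those for Evl, Baz2a and Tril were 0.74, 0.82 and 0.78, lower than with aorta. Those of the Meis2 and Meis3 neighbours lay between 0.81 and 0.87. Among the 5 members themselves, Meis1 and Pbx2 had r = 0.60 over 22 libraries and 0.10 over the 19 outside aorta. Pbx2 and Pbx3 had 0.55 and 0.52, and Meis3 and Pbx3 had -0.46 and -0.58.

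Other TALE genes and the Pbx-binding protein gene Pbxip1 were described from a list of 13. Of these 10 were tested and 8 passed the F test, beside 59.6% of all tested genes. In aorta 4 of these 10 tested genes were lower and 1 was higher. Over all tested genes 51.9% were called there in either direction and 42.8% were lower. The median log2 fold change there was -1.34 in the list, beside -1.04 over all genes. Pknox1, which like Meis binds Pbx, was at -3.79 (adjusted p = 0.00103) and Tgif1, a repressor in TGF-beta signalling, at -1.29 (adjusted p = 0.004951, limma). The 1 listed gene that was higher was Pbxip1, which is not itself a TALE gene. It encodes a protein that binds Pbx and hinders its binding to DNA. Pbxip1 was at 0.68 ± 0.24 (adjusted p = 0.02391, limma), with a mean signal of 4811 ± 2326 in aorta. Pbxip1 was lower in bladder, at -0.89 (adjusted p = 0.01433). Of the Irx genes, which encode homeodomain proteins of tissue patterning, Irx2 and Irx5 were higher in stomach, at 3.85 (adjusted p = 0.006118, limma) and 3.89 (0.006044). The highest mean Irx2 signal was nonetheless in kidney, at 68.3 (6 to 193), beside 38.7 (29 to 45) in stomach. Irx1 was higher in kidney at 3.03 (adjusted p = 0.002902), from a mean signal of only 18.7. In stomach 2 of the 10 listed genes passed, beside 20.4% of all genes. In kidney and bladder 1 each passed, beside 10.5% and 15.7%.

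Hox proteins are the partners of these cofactors, and their paralog groups 9 to 13, the posterior groups, bind DNA with Meis proteins in particular. The summed signal of 15 posterior Hox genes was 2557 to 3426 in kidney and 2172 to 2755 in bladder, and 0 to 32 in the other 16 libraries. The 6 kidney and bladder libraries were the same 6 that had the highest Meis2 signals, at least 415, while Meis2 was at most 389 elsewhere. Pearson's r of Meis2 and the posterior Hox sum, on log2 scales, was 0.72 over the 22 libraries and 0.79 over the 19 outside aorta. Libraries fell into separate groups on this plot, so these values describe that split. Meis1 did not share this split: lung and intestine, at 673 and 649, had mean signals between those of kidney and bladder. Its r with the posterior Hox sum was 0.36 over the 22 libraries and 0.56 over the 19 outside aorta. Over groups 1 to 8, the summed signal of 22 Hox genes was 177 to 227 in heart and 1698 to 3213 in aorta. These are the tissues of lowest Meis1 signal, and their Hox sums did not overlap. Meis1 and this sum, on log2 scales, had a Pearson's r of 0.17 over the 22 libraries and 0.83 over the 19 outside aorta. The other members had r of 0.09 to 0.31 over those 19. Libraries fell into tissue groups here too. Heart was low in both, while bladder had sums of 347 to 566 and a mean Meis1 signal of 530. The r values describe libraries that share tissue, scaling and depth, and a relation was not tested.

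**Figure D4:**
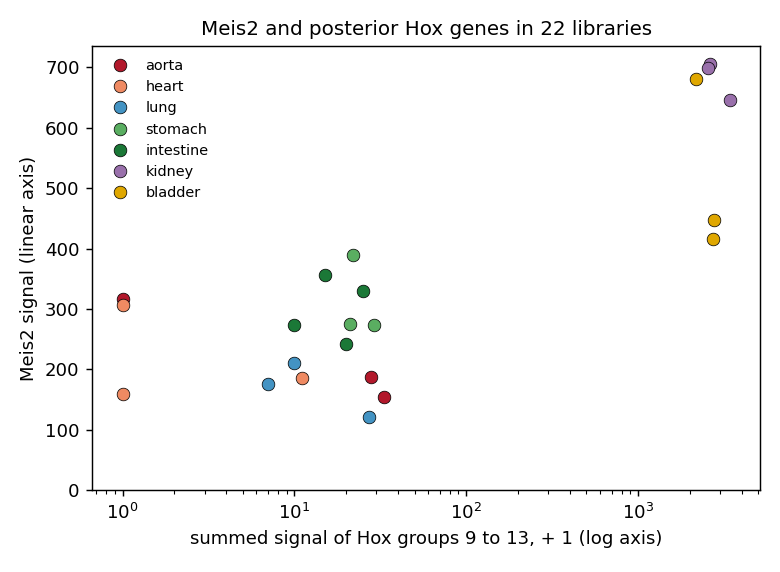
Meis2 signal (vertical, linear axis) against the summed signal + 1 of 15 Hox genes of paralog groups 9 to 13 (horizontal, log axis), with a point for each of the 22 libraries coloured by tissue. The 6 kidney and bladder libraries lie apart, at sums of 2172 to 3426 and Meis2 signals of 415 to 706.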

How the data were processed

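RNA of sorted arterial smooth muscle cells had been amplified from at most 10 ng with the SMART-Seq v4 kit, which makes full-length cDNA and does not mark strand, per the labels' protocols. The authors deposited 1 table of signal: whole numbers whose steps show that reads were rescaled library by library, so count tests were not the main test. The build was mm39 and the tools included featureCounts 2.0.4, DESeq and DESeq2 1.36.0, with STAR 2.7.10a, Trimmomatic 0.39 and Picard 3.0.0, per the submitters' processing notes, whose roles and order are not stated. limma-trend (limma 3.58.1, R 4.3.3) was run on log2(signal + 1) over the 16917 genes that reached 10 in 3 or more libraries, with 22 libraries in 7 groups, an adjusted p under 0.05 and p-values adjusted over all genes. Fold changes are differences of mean log2 values, and those of low genes depend on the added 1: Pbx2 in aorta was at -3.07 with 5 added and -4.34 with 0.5 added. Reads were rebuilt by dividing by each library's step, 0.4216 to 9.4205 signal per read, and were tested with edgeR 4.0.16 as an alternative. The fits and the step search were tested on simulated data. Rebuilt reads of the 5 genes reached at most 0.374 per exonic base. Intervals and floors cover counting error only, since PCR copies were not marked by molecular identifiers. Libraries of 1 tissue differed by more than sampling noise (lowest chi-square per degree of freedom 6.97), so none was merged, which does not show that they came from separate samples. The genes, gene lists and marker lists were chosen with earlier results of these data known. Genes named besides the 5 were the 3 most alike in profile among genes with a mean signal of at least 50 in some tissue, members of the listed TALE, Hox and marker genes, and genes overlapping a member. Alternatives were other pseudocounts, no filter, median-of-ratios scaling, array weights, a replicate block, leaving out the aorta libraries or each library, and edgeR. The list of other TALE genes leaves out 1 gene that is not reported here.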

Additional observations from a re-analysis of the deposited data

How the results depend on the processing

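The calls of Meis1, Meis2, Meis3 and Pbx2 across the 7 tissues passed in all 31 alternatives. The adjusted p of Pbx3 (limma), 0.05329, became 0.04072 with a pseudocount of 5, 0.04432 with median-of-ratios scaling, 5.887e-06 with array weights, 0.009855 without the aorta libraries and 0.00105 without these and heart 3, an alternative chosen after seeing the data. With 1 library left out it ran from 0.01305 to 0.115. The count of 4 genes ran from 4 to 5. The 7 calls of a tissue against the others became 15 with array weights, 12 with edgeR, and, of 30, 14 without aorta and 15 without aorta and heart 3. With 1 library left out they numbered 5 to 15, with 11, 12 and 15 without aorta 1, 2 and 3. The 28 pair calls became 44 with array weights and 21 to 35 with 1 library left out. The 2 ratio calls, both in aorta, became 0 to 2 with 1 library left out. Without the aorta libraries neither could be made, and 1 of the 12 tests left passed, Meis2 over Meis1 in lung. None of the fold changes and ratios recomputed under these alternatives changed direction. Why calls changed was not tested.

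No shared effect of the replicate number was seen across tissues. Deviations of same-numbered libraries had a median correlation of -0.01 (-0.10 to 0.26), and 6 of 21 libraries correlated best with their own number. This cannot tell whether same-numbered libraries came from the same mouse. With the number as a replicate block, 4 genes, 6 tissue calls and 23 pair calls passed, and Meis3 in lung did not (adjusted p = 0.06371).

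Over all genes, calls in aorta fell from 8783 to 2200 with array weights. Other counts also moved by over 1.5 times: heart from 3113 to between 1465 and 6479, lung from 1338 to between 522 and 6081, stomach from 3447 to between 1832 and 9460, intestine from 4306 to 10102, kidney from 1771 to between 711 and 3793, and bladder from 2658 to between 1608 and 5883. Depth limits Pbx2 in all 3 aorta libraries (0, 9 and 3 reads), Meis1 in aorta 1 and 2 (3 and 2 reads) and Pbx3 in aorta 1 (2 reads).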
